A study of Mus musculus with 10 samples.

Results

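Broad promoter acetylation domains are promoter regions over which H3K27ac, acetylation of lysine 27 on histone H3, stretches well beyond the start of the gene. Members were the autosomal regions of the class prom (read here as promoter) whose end minus start was 6000 bp or more in the deposited region table. The rule found 3740 of 16051 autosomal promoter regions, or 3740 of 50898 regions in all. They were set beside the 10888 autosomal promoter regions of 1500 to under 6000 bp, called comparison promoters below.

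H3K27ac was measured by ChIP-seq, in which chromatin fragments bound by an antibody to the mark are sequenced, in the cerebral cortex of 10 mice aged 8 weeks on the C57BL/6J strain. In the study, 5 mice were heterozygous for a Dnmt3a knockout (Het) and 5 were wild type (WT), and each Het mouse was matched to a WT littermate, giving 5 pairs, 3 male (litters 650, 119 and 726/728, the last a pair whose mice carry separate numbers and are joined by the names of their table columns) and 2 female (651 and 141). The labels name no Cre driver, transgene or treatment; Het replicate 5 is called cKO in its description but heterozygous in its genotype label, and it was used as Het. The tissue is whole cortex, so each value is a sum over neurons, glia and vessel cells, and fewer cells with the mark and less of the mark per cell cannot be told apart. Cell type markers were not checked here, because no gene annotation of the mm9 build was used, and regions are named by position.

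H3K27ac marks active promoters and enhancers. Most active promoters carry it as a short peak on the nucleosomes beside the start site, while at some genes it spreads over the gene body and merges with neighbouring elements. Wide domains of this kind are known from many tissues at strongly transcribed genes, among them genes that set cell identity. Dnmt3a is a de novo DNA methyltransferase that, in neurons after birth, adds methyl groups to cytosines, also outside CG dinucleotides. Whether losing 1 copy of it changes acetylation at regulatory regions is what the comparison of Het with WT littermates addresses.

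The first question was what these regions look like before any comparison. Their median width was 9598.5 bp (quartiles 7362 and 14883.8 bp), against 2734.5 bp for comparison promoters, and the widest measured 124164 bp. By width, 1238 spanned 6000 to under 8000 bp, 744 spanned 8000 to under 10000 bp, 836 spanned 10000 to under 15000 bp and 922 were wider still. Values are pseudo-counts, read counts adjusted by the authors to a common library size. The median broad promoter held 330 pseudo-counts, averaged over the 10 libraries, and the median comparison promoter 95.6.

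**Figure D1:**
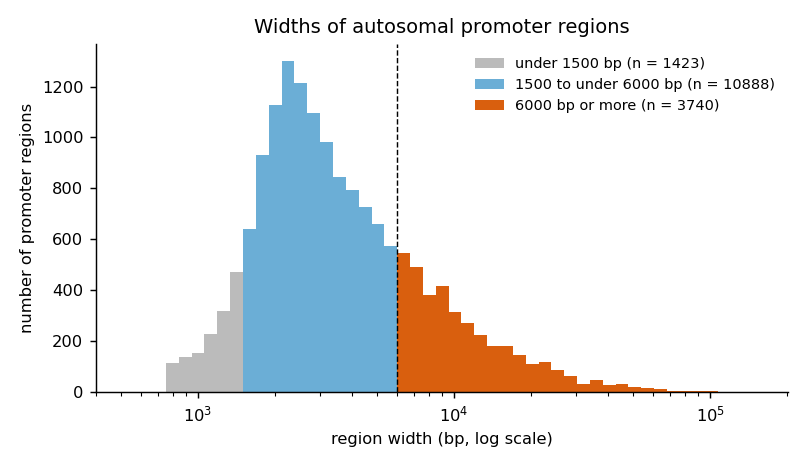
Number of autosomal promoter regions (y axis) by region width in bp (x axis, log scale), coloured by width class; the dashed line marks 6000 bp. The peak lies among comparison promoters, whose median is 2734.5 bp, and the 3740 broad promoters form its right tail, up to 124164 bp.

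The higher total went with width, not with a denser signal. Per kb of region, broad promoters had a median of 31.0 pseudo-counts (quartiles 23.4 and 41.4) and comparison promoters 34.4 (22.7 and 47.8). The median per kb hardly moved over the 4 width groups, from 31.0 at 6000 to under 8000 bp, through 30.2 and 30.8, to 31.8 from 15000 bp. Enhancer regions of the same width class (class enh, 6000 bp or more, 4305 on autosomes) had 20.3 per kb. Broad promoters covered 49.5 Mb, 23.8% of the length of all regions, and held 30.4% of all pseudo-counts.

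The 6000 bp limit cut through a continuous range of widths. The 3 regions just inside it, chr12:16593461-16599461, chr5:97425014-97431015 and chr10:80778984-80784986, had widths of 6000, 6001 and 6002 bp and mean values of 181.6, 227.7 and 239.5 pseudo-counts. The 3 just outside, chr11:4114436-4120434, chr16:91483560-91489556 and chr1:148340764-148346758, measured 5998, 5996 and 5994 bp and had 304.5, 223.5 and 357.4. Of the 3 outside, 2 had a higher mean value than any of the 3 inside.

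The 5 widest regions were chr18:69655878-69780042 (124164 bp), chr2:44850779-44974334 (123555 bp), chr16:34197465-34310113 (112648 bp), chr9:56468077-56578702 (110625 bp) and chr9:62297815-62403888 (106073 bp). The widest held 6000, 5881, 5777, 6441 and 5177 pseudo-counts in WT replicates 1 to 5 and 5037, 5938, 6542, 5677 and 5012 in Het replicates 1 to 5. The genotypes overlapped there, with the highest and the lowest value both in Het. Of these 5 regions, 3 were also among the 5 with the highest mean value. The other two of that group were chr8:87221725-87325813, with a mean of 5465 and 52.5 pseudo-counts per kb, and chr2:165635143-165716619, with 5406 and 66.4 per kb. In none of these 7 regions did Het and WT differ by limma (all adjusted p = 1.00), and their log2 differences, Het minus WT, lay between -0.06 and 0.01.

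Broad promoters lay in denser neighbourhoods of acetylated regions than comparison promoters did. Within 20 kb of its edges a broad promoter had 1.54 enhancer regions on average, and 74.1% had at least 1. Comparison promoters had 0.790 and 47.7%. Enhancer regions of 6000 bp or more had more still, 2.285 and 87.1%, so enhancer neighbours were not particular to broad promoters. The median gap to the nearest region of any class was 3290 bp for broad and 9034 bp for comparison promoters, and no regions of the table overlapped. Other promoter regions within 20 kb were closer in number, 0.852 against 0.710 on average. Part of the enhancer numbering was absent from the table (32614 of numbers up to 45320 were present), and what the absent numbers were is not known, so enhancer neighbours are counts of listed regions only. The share of promoter regions that were broad ran from 19.4% on chromosome 13 to 31.1% on chromosome 15 (201 of 646), with the other autosomes between 20.6 and 25.2%.

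The comparison of Het with WT found no broad promoter past the threshold. Differences were tested for all 50898 regions with limma on log2(pseudo-count + 1) with sex as a term, and p-values were adjusted over all regions by Benjamini-Hochberg at 0.05. None of the 3740 broad promoters passed (background: 0.00196% of all regions, the 1 region called, a comparison promoter), and 29 (0.775%) had an unadjusted p under 0.05, against 2.1% of all regions. Limma-voom on recovered reads also called 0, with 32 (0.856%) at an unadjusted p under 0.05, against 2.21% of all regions. When litter replaced sex as the model term (a litter block), 111 broad promoters (2.97%) had an unadjusted p under 0.05, against 4.63% of all regions, and none passed (smallest adjusted p = 0.476). In the authors' deposited table the smallest FDR of a broad promoter was 1.00 (0.00393% of all regions had an FDR under 0.05), and 23 broad promoters (0.615%) had a p under 0.05, against 1.76% of all regions.

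The measurement was precise for these regions. The median standard error of the log2 difference was 0.098, against 0.121 for comparison promoters and 0.152 for all regions. Its 95% interval lay inside 1.2-fold either way in 60.8% of broad promoters, inside 1.3-fold in 96.6% and inside 1.5-fold in 99.9%. For comparison promoters these shares were 19.8%, 66.4% and 95.05%. From 15000 bp on, 83.5% of broad promoters lay inside 1.2-fold.

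As a class, broad promoters had nearly the same level in both genotypes. Their median log2 difference, Het minus WT, was -0.013, with 42.1% of regions higher in Het; comparison promoters had -0.019 and 42.6%, and all regions 0.009 and 53.0%. The median by littermate pair was -0.08 in litter 650, 0.04 in 651, 0.02 in 119, -0.02 in 141 and -0.04 in 726/728. The sign thus varied from litter to litter, with 2 pairs above and 3 below 0. Broad minus comparison medians were -0.030, 0.003, 0.062, -0.024 and 0.009 in the same order, above 0 in 3 of 5 pairs. All 5 pairs had the higher value in Het in 75 broad promoters (2.01%; 3.53% of all regions) and the lower value in 96 (2.57%; 2.46% of all regions).

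All 5 Het mice lay above all 5 WT mice in 4 broad promoters (0.107%; 0.226% of all regions) and below them in 5 (0.134%; 0.149% of all regions). These 9 were named after their values were seen, and none passed the test. The 4 above were chr17:81103246-81129617, chr4:114077700-114085561, chr6:34425139-34432352 and chr8:72730580-72737840, with log2 differences of 0.09 to 0.18. The 5 below were chr12:114059770-114068833, chr15:97937807-97943999, chr16:4931209-4941111, chr3:87964141-87979467 and chr6:101297828-101314023, with -0.22 to -0.14. Both shares were at or under those of all regions.

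Broad promoters held 56.6, 56.6, 56.6, 57.9 and 56.8% of autosomal promoter signal in WT replicates 1 to 5 and 55.9, 56.7, 58.0, 57.4 and 57.0% in Het replicates 1 to 5. WT averaged 56.9 ± 0.58% and Het averaged 57.0 ± 0.79% (SD, 5 mice each), and the genotypes overlapped over nearly their whole range. The median level was 31.2 ± 0.71 pseudo-counts per kb in WT and 31.0 ± 1.14 in Het. Neither mean moved by as much as 1 SD of its group.

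**Figure D2:**
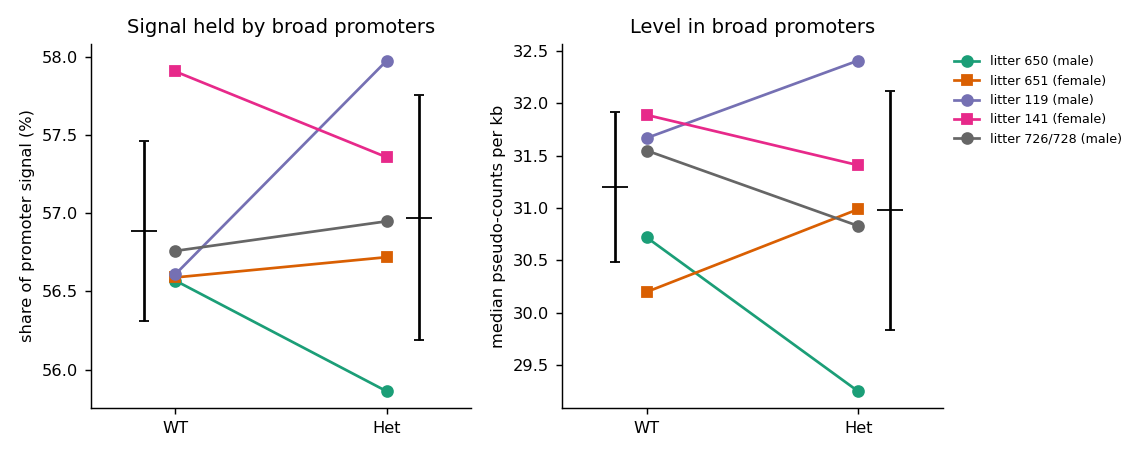
Share of autosomal promoter signal in broad promoters in percent (left) and their median pseudo-counts per kb (right) for each mouse, WT and Het joined by litter; black bars are group means with SD (n = 5 each). Lines rise in some litters and fall in others, and the group means, 56.9 and 57.0%, differ by less than the SD of 0.58 or 0.79.

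The named members on either side are the extremes of 3740 regions, and none of them passed the test. The promoter region chr19:10528643-10535842 had 115, 151, 133, 93.5 and 106 pseudo-counts in WT replicates 1 to 5 and 161, 160, 143, 141 and 169 in Het replicates 1 to 5. Het was higher in 5 of 5 pairs, although WT replicate 2 lay above 2 of the Het libraries. Its log2 difference was 0.38 (SE 0.12; limma unadjusted p = 0.00219, adjusted p = 1.00). With the litter block its adjusted p was 0.476, the smallest of any broad promoter. On the lower side, chr7:89002401-89009501 had 251, 241, 231, 249 and 312 in WT and 195, 201, 222, 211 and 252 in Het, lower in Het in 5 of 5 pairs. The groups overlapped there through Het replicate 5 alone, whose WT littermate was also the highest WT library. Its log2 difference was -0.24 (SE 0.10; limma unadjusted p = 0.0204, adjusted p = 1.00).

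The other 4 regions on the higher side, chr1:178923351-178930481, chr1:129221600-129228499, chr11:77743277-77752238 and chr15:39584331-39592717, had log2 differences of 0.26 to 0.31. Het was higher in 5, 4, 4 and 5 of 5 pairs. The other 4 on the lower side, chr9:57616776-57625511, chr17:13987573-13993712, chr15:97937807-97943999 and chr17:56527707-56535234, had -0.30 to -0.22, with Het lower in every pair except 1 pair of chr17:13987573-13993712. All 10 measured 6139 to 8961 bp, below the median width of the class. Wide members held fewer small p-values: 1.37% of those of 6000 to under 8000 bp, 0.120% of those of 10000 to under 15000 bp and 0.217% of those from 15000 bp had an unadjusted p under 0.05. The reported fit did not use the pairing. From 15000 bp the log2 differences had an SD of 0.054 over regions, below their median standard error of 0.091. With the litter block, 2.97% of all broad promoters had an unadjusted limma p under 0.05, against 0.775% in the reported fit.

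**Figure D3:**
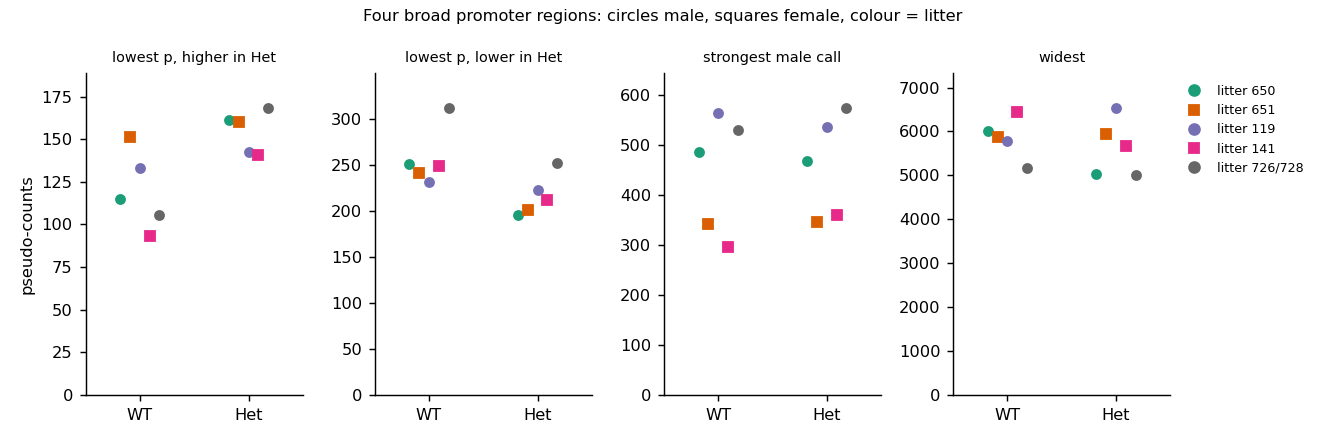
Pseudo-counts (y axis, from 0) of each mouse in 4 broad promoter regions, by genotype; circles are males, squares females and colours litters. In the first and second panel Het and WT shift by 0.38 and -0.24 on the log2 scale, in the third males (469 to 575) lie above females (296 to 360) in both genotypes, and in the fourth, the widest region, genotypes and sexes mix.

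Litters differed from each other by more than littermates did in these regions. The median SD of log2 values between litter means was 0.142 in broad promoters, above the 0.114 within litters, and 68.1% of them had the larger SD between litters. In comparison promoters the values were 0.155 and 0.154, and 50.6%. Enhancers of 6000 bp or more had the same order as broad promoters, 0.138 and 0.127, and 56.9%. The SD between litters includes any difference between male and female litters. A mean of 2 mice varies less than 1 mouse, so if littermates were no more alike than other mice the SD between litter means would have a median of 0.0803 in broad and 0.109 in comparison promoters; both measured values were higher. Counting error, computed from the recovered reads, gave a median SD of 0.082 for broad and 0.152 for comparison promoters. Spread within litters was thus close to counting error in comparison promoters and above it in broad ones, which held more reads: medians of 161 to 495.5 per region and library, against 49 to 145. The least variable members were chr2:177885595-177911387 (684 to 755 pseudo-counts over the 10 mice), chr14:26553537-26589567 and chr2:25942212-25949709, with SDs of 0.042, 0.046 and 0.047 on the log2 scale. The most variable were chr9:100366797-100372825, chr16:4601696-4608185 and chr18:60802597-60813301, with 0.49, 0.47 and 0.45. In chr16:4601696-4608185 both animals of litter 726/728 were the highest, 187 in WT and 174 in Het, against 73.0 to 115 in the other 8 mice.

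Libraries also differed by the density of signal within the domain, a split chosen after seeing the data and not compared with other properties. Broad promoters were divided by pseudo-counts per kb into 5 groups of 748, from 10.6 to 21.7 per kb in group 1 to 44.2 to 165 in group 5. Group 1 minus group 5, as the median log2 deviation of a library from the region mean, was 0.10, 0.07, -0.08, -0.41 and 0.17 in WT replicates 1 to 5 and 0.37, -0.05, -0.29, -0.24 and 0.38 in Het replicates 1 to 5. Het replicates 1 and 5 had relatively more signal in sparse domains, and WT replicate 4 and Het replicates 3 and 4 relatively more in dense ones. The genotypes overlapped, at -0.03 ± 0.23 on average for WT and 0.03 ± 0.32 for Het (SD, 5 mice each). The Het minus WT median fell over the 5 groups in litters 650, 141 and 726/728, from 0.09, 0.09 and 0.08 to -0.18, -0.07 and -0.13, and rose in litters 651 and 119, from -0.03 and -0.11 to 0.09 and 0.12. The pooled difference between group 1 and group 5, 0.056 on the log2 scale, fell below 0 when WT replicate 4 (-0.0042), Het replicate 1 (-0.0036) or Het replicate 5 (-0.0057) was left out, and it was 0.14 without WT replicate 2, 0.019 without WT replicate 3, 0.037 without Het replicate 2, 0.089 without Het replicate 4 and 0.17 without Het replicate 3.

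**Figure D4:**
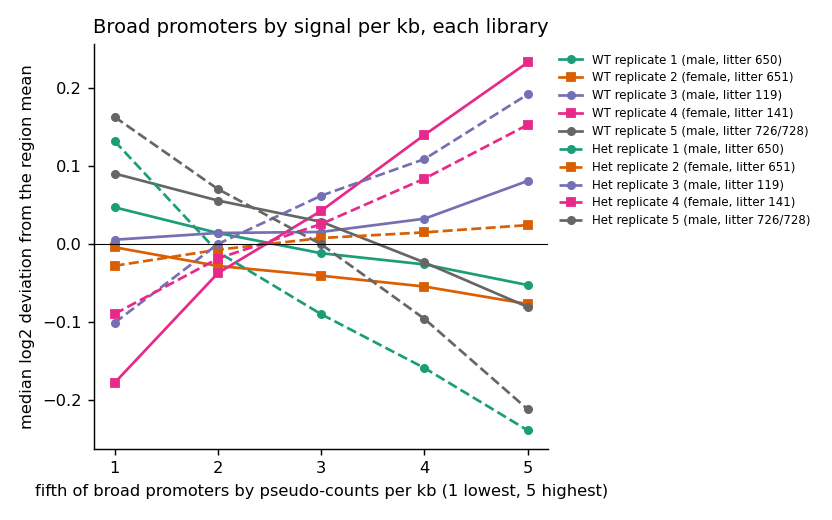
Median log2 deviation of each library from the region mean (y axis) in 5 groups of 748 broad promoters ordered by pseudo-counts per kb (x axis); solid lines are WT, dashed lines Het, circles males, squares females, colours litters. Libraries lie closest in group 2, from -0.04 to 0.07, and at group 5 they spread from -0.24 (Het replicate 1) to 0.23 (WT replicate 4).

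A measure taken over all regions moved with this axis. It shares regions with the dense broad promoters, so the 2 measures are not independent. The strongest 5% of all regions held 33.6, 33.2 and 32.4% of the signal in WT replicate 4, Het replicate 3 and Het replicate 4, the 3 libraries with the lowest values on the density axis. They held 28.2 and 29.5% in Het replicates 1 and 5, the 2 with the highest. The part of signal concentration in the differences between libraries was not tested.

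The comparison of males with females, tested in the same fit, called 133 of 3740 broad promoters (3.56%; background 0.904% of all regions), 129 higher (0.841% of all regions) and 4 lower in males (0.0629% of all regions). Of the 10888 comparison promoters 98 were called, and 2.14% of enhancers of 6000 bp or more. At an unadjusted p under 0.05 there were 1015 broad promoters (27.1%; 13.2% of all regions), 565 higher and 450 lower in males. Every male lay above every female in 272 (7.27%; 2.28% of all regions) and every male below every female in 51 (1.36%; 0.866% of all regions). The median over all broad promoters was -0.026 on the log2 scale, male minus female, so the class as a whole was not higher in males. Females came from 2 litters and males from 3 others, so sex and litter cannot be told apart. This fit had no litter term and counted littermates as independent mice, so its p-values rest on mice and not on litters. With the litter as a random effect, 18 broad promoters were called. The share of all regions called in that setting is not given, so the 18 cannot be set against the 0.904%. The SD between litters was the larger one in 68.1% of broad and 50.6% of comparison promoters. How far this raised the share of broad promoters called above the background was not tested.

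The number of calls rested on single libraries. Shares of all regions are not given for the settings below, so their counts describe stability and not an excess over other regions. No broad promoter passed without both animals of litter 141, and 62 did without litter 651. The differences themselves stayed: the 129 regions called higher in males had a median log2 difference of 0.46 with all mice, 0.44 without litter 141 and 0.50 without litter 651, and all 129 kept their sign in both. These regions were chosen on data that include both litters, and without either one the females come from a single litter. The random effect used 1 litter correlation for all regions, 0.265, and was not fitted to broad promoters separately. The count of broad promoters called was 18 with median-of-ratios scaling, 18 with the litter as a random effect, 262 with abundance-dependent loess and 751 without Het replicate 3, where 386 were higher in males. It was 206 without WT replicate 2, 28 without WT replicate 3, 3 without WT replicate 4, 48 without WT replicate 5, 40, 4, 6 and 35 without Het replicates 1, 2, 4 and 5, and 121 without WT replicate 1.

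Among the regions called higher in males, chr4:43738062-43752839 (14777 bp) ranged from 469 to 575 pseudo-counts in the 6 males, with a median of 534, and had 343, 296, 346 and 360 in the females WT 2, WT 4, Het 2 and Het 4. The sexes did not overlap, and both genotypes showed the same order. Its log2 difference, male minus female, was 0.65 (SE 0.09; limma adjusted p = 0.000439). The promoter region chr8:34911286-34931768 (20482 bp) ranged from 330 to 442 in males, median 367, and had 276, 214, 243 and 224 in the same females, with 0.65 (SE 0.10; limma adjusted p = 0.00141). Both calls ended without litter 141 (adjusted p = 0.166 and 0.2845), where the differences were 0.61 and 0.53, and held in the other 19 settings run for each.

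The remaining 3 of the 5 with the largest fold, chr9:100366797-100372825, chr18:60802597-60813301 and chr7:86987307-86993404, had log2 differences of 0.75, 0.64 and 0.63 (limma adjusted p = 0.0173, 0.0295 and 0.0216). Their calls ended in 8, 9 and 8 of 20 settings, each time including those without WT replicate 4, without Het replicates 1, 2 or 4, without litter 141 and with the litter as a random effect; the call also ended without WT replicate 5 for the first, WT replicates 3 and 5 and Het replicate 5 for the second and WT replicate 3 and Het replicate 5 for the third, and without litter 651 for the first. Where the calls ended, the log2 differences were 0.65 to 0.84, 0.38 to 0.75 and 0.55 to 0.65. In chr9:100366797-100372825 the values were 57.6 to 101 in males, median 84.6, and 46.1, 37.1, 51.3 and 61.2 in females, so the highest female lay above the lowest male, Het replicate 3.

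Of the 4 regions called lower in males, the promoter region chr3:84754062-84794133 (40071 bp) ranged from 1025 to 1391 in males, median 1117, and had 1409, 1745, 1364 and 1542 in females WT 2, WT 4, Het 2 and Het 4. Its log2 difference was -0.39 (SE 0.10; limma adjusted p = 0.0354), and the sexes overlapped through Het replicate 3, the highest male. The others were chr5:107924733-107938325 (-0.46), chr13:23661788-23668809 (-0.46) and chr9:112075101-112108728 (-0.36). Each of the 4 calls ended in 10 or 11 of 20 settings, among them median-of-ratios scaling, the litter as a random effect, no litter 141, and leaving out WT replicate 3, 4 or 5 or Het replicate 1, 2, 4 or 5. The call at chr13 also ended without litter 651 and that at chr9 without WT replicate 1. Where the calls ended, the log2 differences ranged from -0.51 to -0.33 at chr5, -0.53 to -0.38 at chr13, -0.45 to -0.27 at chr3 and -0.41 to -0.22 at chr9. The smallest were those without litter 141, and with median-of-ratios scaling all 4 were larger in size than with all mice and the reported scaling.

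Calls between the sexes concentrated in sparse domains. From density group 1 to group 5 the share called was 7.75, 5.48, 2.94, 1.34 and 0.267%, and the median log2 difference, male minus female, went from 0.11 through 0.02, -0.02 and -0.09 to -0.14. The fall was shallower with abundance-dependent loess. There 85, 80, 50, 33 and 14 of 748 were called, against 58, 41, 22, 10 and 2 in the reported fit. The 129 regions called higher in males had a median of 23.1 pseudo-counts per kb, against 31.5 in the 3607 broad promoters not called, at similar widths (10322 and 9573 bp). At the same densities comparison promoters showed the same order of medians, from 0.14 to -0.07, with 1.53, 2.05, 1.498, 0.299 and 0.0295% called. Wide enhancers went from 0.05 to -0.16, with 2.89% called in group 1. The difference between groups 1 and 5 of the broad promoters was 0.257, and it was 0.091 without litter 141, 0.424 without litter 651 and 0.164 without WT replicate 4.

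**Figure D5:**
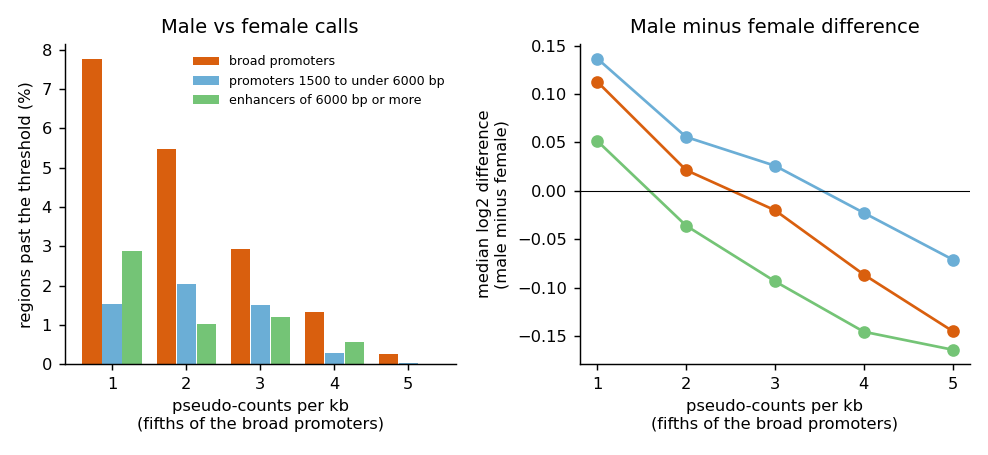
Share of regions past the threshold between males and females in percent (left) and median log2 difference, male minus female (right), in bins of pseudo-counts per kb set by the 5 groups of broad promoters, for broad promoters, comparison promoters and enhancers of 6000 bp or more. Broad promoters run from 7.75% called in group 1 to 0.267% in group 5, and the median falls with density in all 3 region sets.

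Since wide regions hold more reads, the share called was also set side by side at matched totals. In decile 7 of mean value over autosomal promoters (143 to 183 pseudo-counts), 6.71% of 313 broad and 1.01% of 1291 comparison promoters were called. In decile 8 the shares were 4.92% of 590 and 0.296% of 1015, at median standard errors of 0.103 and 0.105, and in decile 9 they were 2.81% of 995 and 0 of 610. At the same total a broad promoter is the sparser one, 26.4 against 55.7 pseudo-counts per kb in decile 8. At a given total a wider region is sparser by definition, so width and density cannot be told apart there. These shares and standard errors also come from the fit that counted littermates as independent mice.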

How the data were processed

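H3K27ac ChIP-seq libraries of cortex from 5 WT and 5 Het mice were used, grouped by the genotype labels. Separate mice are the replicates, and between sexes littermates were counted as separate mice too. Bowtie2, edgeR and the mm9 build are named in the submitters' processing notes. The sources used here give no versions and do not say how regions were called or classed. The deposited signal per region is a pseudo-count, an adjusted read count per the file headers, and the authors' table also holds log2 fold changes, p-values and FDR values. The adjustment was to a common library size, so a uniform change would be hidden. For the recovery of reads it was taken to be made around a mean for each genotype. Because the values are not counts, the planned limma form was used: limma 3.58.1 in R 4.3.3 (trend, robust) on log2(value + 1), sex and genotype as terms, 10 libraries, all 50898 regions, no filter. Fold changes on that scale understate weak regions.

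Inverting the adjustment with a dispersion of 0.01509, found from the values, gave back reads; 100% of values (99.99% in WT replicate 5) came within 0.1 read of a whole number, and 9 values deposited as 0 were set to 0. Reads in regions ranged from 2771534 (WT replicate 5) to 8453140 (Het replicate 2), and reads in broad promoters from 834668 to 2554221. The reads served for depth, counting error and limma-voom. Counting error was approximated as Poisson and covers counting only. The recovery and the fit were also run on simulated data. Values for the recovery were made with the same adjustment that it inverts, and those for the fit held no litter effect. These runs therefore cannot test the form of the adjustment or the handling of litters.

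The labels give 5 littermate pairs. For 4 of them the titles share a litter number; the mice of the remaining pair are numbered 726 and 728 and were paired because both numbers stand together in their column names. Over broad promoters, the correlation between littermates of their deviations from genotype means was 0.479 (650), 0.389 (651), 0.129 (119), 0.753 (141) and 0.748 (726/728). The highest correlation of the WT mouse with a Het mouse of another pair was 0.211, 0.0887, 0.195, 0.568 and 0.351 in the same order. It was above the pair's own value for litter 119. Other combinations of mice were not computed.

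Members and lists were chosen with earlier results of these data known. Named regions are the 5 smallest p in each direction between genotypes, the 5 largest folds per direction among calls between sexes, the 5 widest, the 5 highest, the 3 on each side of 6000 bp and the 3 most and least variable; the text gives part of them in full. The 5 density groups and the lowess on density were chosen after seeing the data. Gene lists and markers of the plan needed an mm9 annotation and were not analysed here; no sequence is shown for the same reason. Alternatives were pseudocounts of 0.5 and 5, other scalings, a mean of at least 20, limma-voom, a threshold of 0.10, the litter as a block or random effect, no sex term, width limits of 5000 and 8000 bp, and leaving out libraries or litters.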

Additional observations from a re-analysis of the deposited data

Results flagged for a closer look

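In groups of 4 to 6 mice, 78 sets of values were tested for a single mouse far from the rest of its group (Dixon's test, 95% level), and 10 stood out. Chance gives about 1 in 20 for independent sets, but these share libraries, and several regions were named for their spread or small p, so that rate does not apply to them. WT replicate 4 held 57.9% of promoter signal in broad promoters, against 56.6 to 56.8% in the other WT mice. The same mouse had 6250 pseudo-counts at chr9:56468077-56578702, against 4462 to 4794, and 6402 at chr2:165635143-165716619, against 5201 to 5337. WT replicate 5 had 312 at chr7:89002401-89009501, against 231 to 251, and 185 at chr17:56527707-56535234, against 138 to 150. Het replicate 5 had 219 at chr12:16593461-16599461, against 171 to 179, and 174 at chr16:4601696-4608185, against 73.0 to 98.6. Het replicate 3 had 118 at chr15:39584331-39592717, against 151 to 161 in the other Het mice. Het replicate 1 had 3490 at chr9:62297815-62403888, against 4002 to 4149. Het replicate 2 had 239 at chr5:97425014-97431015, against 231 to 233.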

How the results depend on the processing

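The count of 0 broad promoters between genotypes was the same in every setting run, the litter block, density lowess with the litter block and width limits of 5000 and 8000 bp included. The unadjusted count was 29 in the reported fit, 111 (2.97%) with the litter block, 56 (1.5%) without WT replicate 2, 47 (1.26%) without Het replicate 5, 60 (1.6%) with density lowess, 18 (0.481%) with median-of-ratios factors and 150 (4.01%) without Het replicate 3. From the litter block on, the share of all regions was 4.63, 3.68, 2.2, 3.11, 2.47 and 5.44% in the same order, above that of broad promoters each time. The block changed no call of a broad promoter. Between sexes the count of 133 became 18 with median-of-ratios factors, 262 with abundance-dependent loess, 266 with lowess on density (238 higher in males; chosen after seeing the data; 125 shared with the 133), 18 with the litter as a random effect, 0 without litter 141, 62 without litter 651 and 269 at a threshold of 0.10, and ranged from 3 to 751 when single libraries were left out. The cause was not tested, and shares of all regions called between sexes are not given for these settings. Broad minus comparison medians between genotypes (0.0059) ranged from -0.0113 (without Het replicate 3) to 0.0194 without single libraries, and were also below 0 without WT replicate 2 (-7.401e-05) and with density lowess (-7.191e-05). Group 1 minus group 5 between sexes (0.257) was 0.095 with density lowess, and between genotypes (0.056) it was -0.012. The share of promoter signal, 56.9%, became 63.2% from 5000 bp, 47.2% from 8000 bp and 57.6% over promoters of 1500 bp or more, since the sets differ. Enhancer neighbours averaged 0.524 within 5 kb and 5.94 within 100 kb, against 1.54 within 20 kb. The 10 regions named for Het against WT and the 9 named for male against female kept their sign for that comparison in the 20 settings run for each. They were chosen for small p or large fold in these same data, so the kept sign is no independent support. Other named regions were not followed, and small sex differences did change sign without litter 141 (chr19:10528643-10535842, from 0.02 to -0.20). Depth limits comparison promoters more than broad ones, and WT replicate 5 was the shallowest library.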
